A study of Mus musculus with 18 samples.

Results

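The exon bins of overlapping genes were followed through a study of mouse entorhinal cortex layer II neurons in which Ptbp1 was raised or targeted for silencing. Where genes overlap, the counting annotation joins their identifiers with a plus sign into 1 id and numbers the stretches of exon, called bins, through the whole joined stretch. Taken were all bins of ids that join 2 or more genes and hold a mean of at least 10 counts over the 9 overexpression libraries, with the 27 such bins of 1 id left out by the rule. This gave 7502 bins in 535 ids, of 355320 bins in 37298 ids in the files and of 22057 bins in 801 joined ids. The lowest mean count inside the threshold was 10 and the highest outside it was 9.889. Usage is the share of an id's bin counts that falls in a bin, in percent.

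RNA was purified with ribosomes by TRAP, translating ribosome affinity purification, which captures tagged ribosomes of chosen cells, and each of the 18 libraries came from 1 mouse with both entorhinal cortices pooled. For overexpression, 5 mice were injected with the PTBP1 OE vector and 4 with the control OE vector. For silencing, 4 were injected with the Ptbp1 shRNA vector and 5 with the Scrambled shRNA vector, and the vectors of all 4 groups carried mCherry. The design text states that 1 mouse with the Ptbp1 shRNA and 1 with the control vector were excluded by the authors for want of mCherry reads. The sources used here name no strain, age or sex, no promoter for the ribosome tag and no time after injection. The tissue label reads hippocampus, against the entorhinal cortex of the title. Summed levels of 5 hippocampal markers were 60.3 to 102.5 CPM, counts scaled to the library total, in the control OE and 68.7 to 95.1 CPM in the PTBP1 OE libraries, and those of 4 markers of entorhinal and superficial neurons were 412 to 542 and 414 to 559 CPM. In silencing the ranges meet, with hippocampal markers at 58.1 to 231.9 CPM in Ptbp1 shRNA and 95.7 to 240.3 CPM in Scrambled shRNA, and entorhinal markers at 217.4 to 505 and 188.9 to 429.7 CPM.

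The protein made from Ptbp1 is a splicing regulator that binds pyrimidine-rich stretches near exons and commonly keeps the exon out of the mRNA. In neurons it normally gives way to its paralog Ptbp2, and exons that it held out are then included. Mammalian genes overlap in several ways. Small nucleolar RNAs and microRNAs lie inside host genes, neighbours share readthrough transcripts, and antisense genes run against a coding gene. Where bins were rebuilt here, only exons on the same strand were joined. A read in a shared stretch cannot be given to 1 gene, which is the reason for joining the ids before counting.

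Positions of bins could be rebuilt for 278 of the 535 ids and 3902 of the 7502 bins, on the mouse build GRCm38, which is mm10. Elsewhere a bin named by 1 gene is a bin of the id that holds it, and which gene owns it is not known. The sequences of 4 protein-coding bins are shown, those with positions that passed the test of the difference between both experiments. Mfsd11 bin 58 lies at chr11:116873838-116873945 on the plus strand, Prmt2 bin 12 at chr10:76210398-76210527 on the minus strand and Traf7 bin 4 at chr17:24509532-24509651 on the minus strand. D630045J12Rik bin 49 lies at chr6:38148336-38148559 on the minus strand. They run 5′ to 3′ along the transcript, with TCTT, a short pyrimidine motif often found in Ptbp1 binding sites, in capitals where it occurs.
Mfsd11 bin 58: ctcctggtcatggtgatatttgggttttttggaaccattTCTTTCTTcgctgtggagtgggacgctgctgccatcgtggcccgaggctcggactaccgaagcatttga
Prmt2 bin 12: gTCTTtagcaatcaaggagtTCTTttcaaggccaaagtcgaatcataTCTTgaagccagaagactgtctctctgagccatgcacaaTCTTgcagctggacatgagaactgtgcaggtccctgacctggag
Traf7 bin 4: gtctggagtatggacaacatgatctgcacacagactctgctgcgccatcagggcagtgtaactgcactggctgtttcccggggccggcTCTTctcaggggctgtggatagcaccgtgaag
D630045J12Rik bin 49: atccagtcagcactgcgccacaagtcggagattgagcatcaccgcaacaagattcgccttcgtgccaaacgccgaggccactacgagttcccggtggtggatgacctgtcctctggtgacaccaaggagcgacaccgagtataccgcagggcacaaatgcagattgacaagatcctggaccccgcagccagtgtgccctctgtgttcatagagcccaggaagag

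TCTT, searched on the transcript strand only and counted without overlaps, occurs 2 times in Mfsd11 bin 58, 4 times in Prmt2 bin 12, 1 time in Traf7 bin 4 and 0 times in D630045J12Rik bin 49. Of joined bins within 10% of the same length, 33.3% of 378 hold it for Mfsd11, 36.4% of 440 for Prmt2, 33.1% of 462 for Traf7 and 56.5% of 207 for D630045J12Rik. Of all 3902 bins with positions, 38.7% hold TCTT, at 0.529 occurrences per 100 bases. The 30 bins with higher usage on overexpression at an unadjusted p under 0.05 held it in 53.3% of bins but at 0.383 per 100 bases, and the 24 with lower usage in 37.5% at 0.526 per 100 bases. These matches are a description of the letters in the exon bins, and the introns next to them were not analysed here.

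Another 2 bins are shown because the exon and a microRNA gene occupy the same bases, so that a count there belongs to either. Psmb5 bin 3, at chr14:54616677-54616785 on the minus strand, is coding sequence of a proteasome subunit and has the mature miR-686 in capitals. Bin 4 of 4930470G03Rik, at chr13:21445160-21445240 on the plus strand, is noncoding exon with the mature miR-1896 in capitals. The mature microRNAs, from the RefSeq table for GRCm38.p6, follow with their seeds (bases 2 to 8) in capitals, together with miR-678 of the Prmt2 id.
Psmb5 bin 3: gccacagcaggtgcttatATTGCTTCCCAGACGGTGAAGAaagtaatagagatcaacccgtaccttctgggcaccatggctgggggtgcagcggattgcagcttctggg
4930470G03Rik bin 4: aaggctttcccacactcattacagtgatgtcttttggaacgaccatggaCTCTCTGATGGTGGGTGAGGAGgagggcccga
miR-686: aUUGCUUCccagacggugaaga
miR-1896: cUCUCUGAuggugggugaggag
miR-678: gUCUCGGUgcaaggacuggagg

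The libraries held 13199116 to 28462193 bin counts in overexpression and 24364560 to 32699039 in silencing, and the joined bins 727709 to 1620332 and 1102855 to 1378134 of these. Ptbp1 stood at 118 to 158 CPM in the PTBP1 OE and 9.96 to 17.2 CPM in the control OE libraries, a log2 fold change of 3.36 ± 0.15 (SE, edgeR adjusted p = 5.5e-08). In silencing it ranged from 0.101 to 13.1 CPM where the label reads Ptbp1 shRNA and from 0.349 to 9.11 CPM in the Scrambled shRNA libraries, which overlap (log2 0.31 ± 1.27, unadjusted p = 0.81). The targeted gene thus did not separate these labels, and Ptbp1 shRNA names a library's label in what follows. Levels of 4 oligodendrocyte markers summed to 85.7 to 106.5 CPM in the PTBP1 OE and 76.8 to 87.2 CPM in the control OE libraries, and those of 4 microglial markers to 6.07 to 9.26 and 4.80 to 6.62 CPM. The part of these cells in any result was not tested, and fewer cells of a type and less RNA per cell cannot be told apart in such bulk samples. Marker sums of oligodendrocytes and microglia overlapped between the groups of each experiment, as did those of excitatory neurons, interneurons, astrocytes and vessels. In silencing the microglial sums were 0.0582 to 3.17 CPM in Ptbp1 shRNA and 2.20 to 16.3 CPM in Scrambled shRNA.

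The 535 ids hold 1216 genes. Pairs make up 427 ids, 88 join 3 genes and the largest joins 10. By type 777 genes are protein coding, 102 are microRNA genes and 83 snoRNA genes, and 127 are not in the annotation used for positions. By composition, 216 ids with 3462 bins join 2 or more protein-coding genes, 124 ids with 1968 bins join 1 coding gene to small RNA genes, and 57 ids with 622 bins join a coding gene to other noncoding genes. Another 115 ids with 1332 bins hold a gene outside that annotation, and 23 ids with 118 bins hold no coding gene. The median bin had a mean count of 42.9. Of the 7502 bins 1839 were under 20 counts and 1959 reached 100. An id held a median of 11 of these bins and at most 107, and its top bin took a median of 26.7% of its counts.

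Joined bins at 0 counts were rare in overexpression, 0 to 0.04% per library, which follows from the rule, since it set its threshold on these libraries. In silencing 15% to 33.75% of the same bins were at 0, with the highest shares in Ptbp1 shRNA library 2 (33.75%) and Scrambled shRNA library 5 (32.52%). Among bins with a mean of 100 or more in overexpression, the share at 0 was 1.17% to 6.84% per silencing library, and 74 bins of any count were at 0 in all 9. In 100 ids of 1 coding gene and small RNA genes with positions, the last 25% of the exon length held a median of 22.5% to 27.8% of an overexpression library's counts and 27.1% to 40.5% of a silencing library's. Since the bins were chosen on overexpression counts, at 100 as at 10, a higher share at 0 in the other experiment is built into the choice to an extent that was not tested. The ranges of the Ptbp1 shRNA and Scrambled shRNA libraries overlapped in both measures.

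The spread of usage between mice is given for the same bins, with the same limit. The median coefficient of variation of a bin's usage was 19.3% in the PTBP1 OE and 19.98% in the control OE group, against 93.5% in the Ptbp1 shRNA and 87.1% in the Scrambled shRNA group. For bins with a mean of 100 or more counts it was 9.47% and 9.83%, against 49.8% and 39.2%. Mean usage differed by less than 2-fold for 99.4% of the bins between the overexpression groups and for 60.0% between the silencing groups, with a median difference of 0.2505 and 0.818 percentage points. The controls of both experiments were within 2-fold of each other for 54.8% of the bins.

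**Figure D1:**
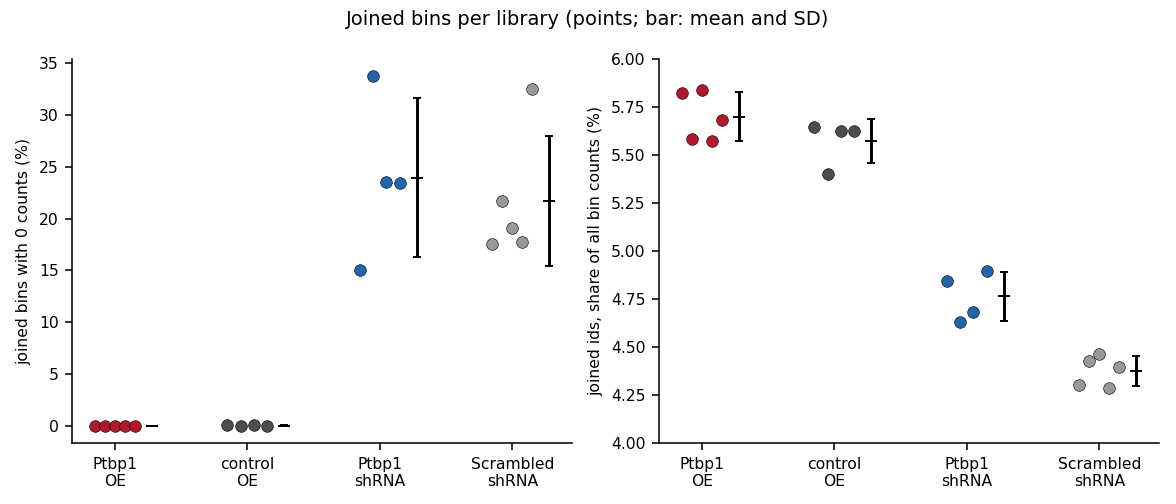
The left panel plots the percent of the 7502 joined bins with 0 counts in each library and the right panel the percent of all bin counts that fall in the joined ids, by treatment group, with 1 point per mouse and a bar for the mean and SD (the right axis runs from 4 to 6%). All 9 silencing libraries sit at 15% or more of bins at 0, and in the right panel the 4 Ptbp1 shRNA libraries lie above the 5 Scrambled shRNA libraries.

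The joined ids, all of their bins included, took 5.57% to 5.84% of all bin counts in the PTBP1 OE and 5.403% to 5.64% in the control OE libraries, which overlap. In silencing they took 4.63% to 4.90% in the Ptbp1 shRNA and 4.29% to 4.46% in the Scrambled shRNA libraries, with no overlap. The id of Eif4g2, a translation initiation factor, contributed most to that difference, at 0.336% ± 0.058 of all counts against 0.248% ± 0.034 (SD, n = 4 and 5). The id of Hspa8, the constitutive heat shock protein, took 0.133% ± 0.020 against 0.0978% ± 0.014. Ppp3r1, the regulatory subunit of the phosphatase calcineurin, with Wdr92 went the other way, at 0.0912% ± 0.016 against 0.138% ± 0.016. In the gene table, which counts each gene by itself, Ppp3r1 stood at 894 to 1376 CPM in the Ptbp1 shRNA and 1685 to 2159 CPM in the Scrambled shRNA libraries, which do not overlap. Its log2 fold change of -0.74 ± 0.19 (SE) had an unadjusted p of 0.0016 and did not pass the adjustment in edgeR's test (adjusted p = 0.165).

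The id with the highest total joins an identifier with no symbol, ENSMUSG00000095746, to Gm38393, and took 2680 ± 130 CPM of the bin counts in the PTBP1 OE and 2883 ± 224 in the control OE libraries. Gm38393 lies at chr7:59974149-60005064 on the minus strand, over RefSeq's Snrpn and Snurf, the imprinted genes of a spliceosome protein and its upstream reading frame, and over their host transcript Snhg14. Its leading bin 5 took 14.7% ± 0.248 of the id in PTBP1 OE and 14.9% ± 0.406 in control OE. In Hspa8, which hosts 3 snoRNAs, the leading bin 36 took 15% ± 0.557 against 15.2% ± 1.54. In Eif4a2, an RNA helicase of translation initiation that hosts 5 snoRNAs, bin 65 took 22.35% ± 0.475 against 21.8% ± 1.35. In these 3 ids the leading bin differed between the overexpression groups by less than the SD of the control group.

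The leading bins of some ids stood at other levels in silencing and those of others did not. In Hspa8 bin 36 took 15.8% ± 2.59 and 15.9% ± 2.02 in Ptbp1 shRNA and Scrambled shRNA, close to overexpression, and bin 30 of Dnaja1, a co-chaperone, took 26.6% ± 1.63 and 26.5% ± 1.28 in overexpression and 30.9% ± 5.87 and 25.8% ± 1.70 in silencing. Bin 3 of Prkar1b, a regulatory subunit of protein kinase A, took 52.5% ± 1.73 and 53.8% ± 5.55 of the id in PTBP1 OE and control OE, and 75.2% ± 12.8 and 77.9% ± 9.08 in Ptbp1 shRNA and Scrambled shRNA. Bin 1 of Gria2, an AMPA-type glutamate receptor subunit, took 20.1% ± 1.32 and 20.3% ± 1.83 in overexpression and 44.9% ± 5.45 and 43.3% ± 4.13 in silencing. Bin 2 of the id of L1cam, a neural cell adhesion molecule, took 9.86% ± 0.730 and 9.95% ± 0.846 against 38.5% ± 7.63 and 35.5% ± 2.11. These are low-numbered bins of genes on the minus strand, toward the 3′ end. In Eef1a1, a translation elongation factor also on the minus strand, the high-numbered bin 22 took 10.35% ± 1.26 and 10.29% ± 1.37 in overexpression and 22.7% ± 6.83 and 18.3% ± 2.34 in silencing, and the low-numbered bin 6 went from 14.7% and 14.6% to 9.65% and 10.97%. Bin 2 of Eef1a1 went from 5.07% and 4.80% in overexpression to 8.34% and 9.57% in silencing, so bins of this id went both ways. Over the 100 ids above, the last 25% of the exon length held 25.1% in PTBP1 OE and 24.4% in control OE, as means of library medians. It held 33.6% in Ptbp1 shRNA and 32.6% in Scrambled shRNA, and the single bins given here do not stand for all ids. The vectors and the libraries of both experiments differ together and cannot be told apart, so these are levels with no test.

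For ids with positions, counts could be split by the gene that owns each bin. Among 117 ids with 2 or more coding genes, 1 gene's own bins held over 90% of the counts in 31 ids, 50 to 90% in 53 and 50% or less in 33. The median share of the leading gene was 70.3%, and bins owned by 2 or more genes held a median of 12.1%. Counts of a joined id therefore mostly describe 1 of its genes in some ids and cannot be fully assigned in others.

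The pair of Pfdn5, a subunit of the prefoldin chaperone, and Myg1 was of the first kind, with 86.7% ± 1.53 of counts in Pfdn5 alone in PTBP1 OE and 87.1% ± 1.38 in control OE. Mapk8ip3, a scaffold of kinesin transport in axons, held 93.1% ± 0.870 and 93.9% ± 0.634 of the counts it is joined in with Eme2. Ppp3r1 held 79.4% ± 1.35 and 80.8% ± 3.08, Wdr92 alone 0.998% ± 0.123 and 1.04% ± 0.195, and bins of both 19.6% ± 1.31 and 18.1% ± 3.09. In the Cbx6, Npcd and Nptxr id, Nptxr, the neuronal pentraxin receptor, held 77.3% ± 3.22 and 78.4% ± 1.65.

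Other loci could be split only in part or hardly at all. Rnasek, a ribonuclease, lay almost wholly in shared bins, with 98.25% ± 0.066 in PTBP1 OE and 98.3% ± 0.060 in control OE. Shared bins held 49.5% ± 1.499 and 49.3% ± 0.980 for the nucleoside diphosphate kinases Nme1 and Nme2. Nme1 alone held 48.4% ± 1.66 and 48.7% ± 1.38, and Nme2 alone 2.12% ± 0.174 and 1.98% ± 0.470. In Med12 with Nlgn3, a synaptic adhesion molecule, shared bins held 52.4% ± 3.10 and 56.8% ± 7.10. Nlgn3 alone held 35.2% ± 3.57 and 33.0% ± 5.10, and Med12 alone 12.4% ± 3.20 and 10.2% ± 2.72. The ranges of the overexpression groups overlapped for the leading component of each of these loci, and the SDs in silencing were mostly several times wider.

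**Figure D2:**
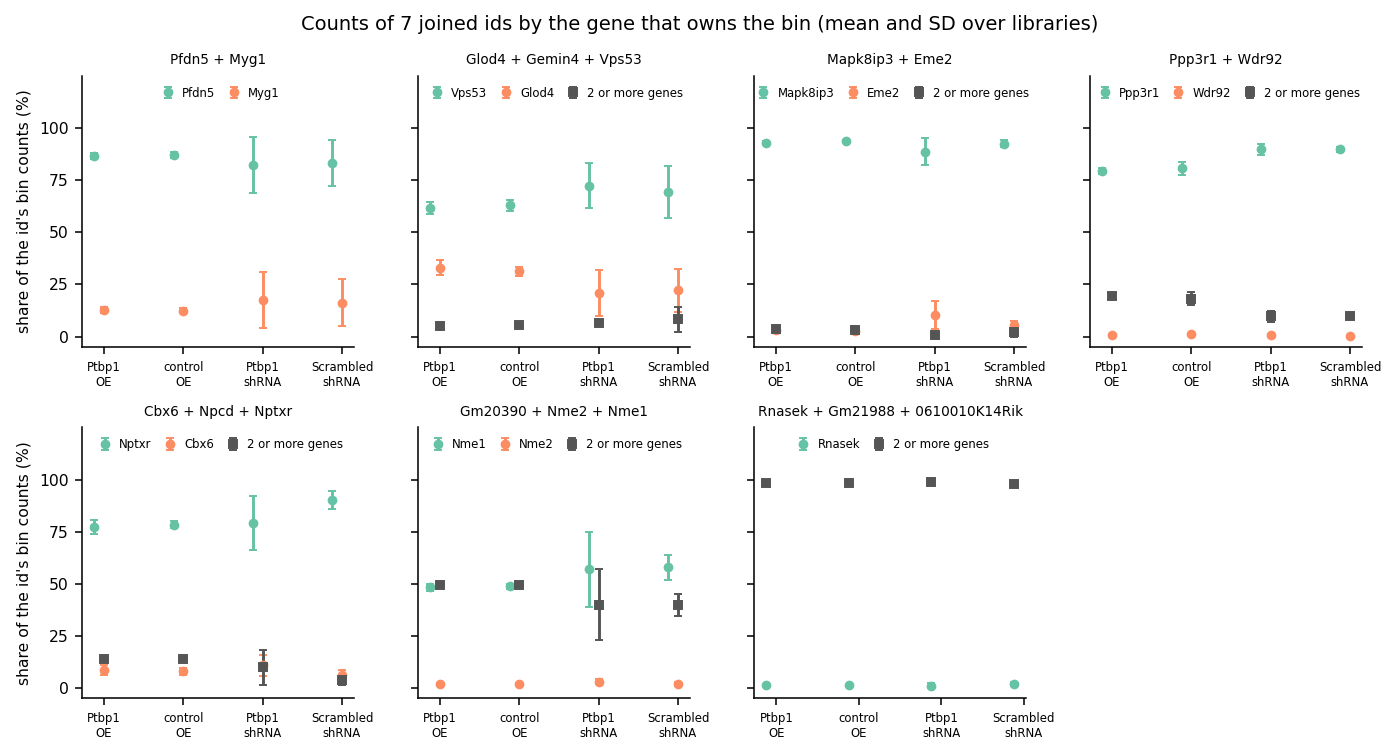
Each panel splits the bin counts of 1 joined id by the gene that owns the bin, as a mean with SD over libraries in the 4 groups, in percent, for 7 of the 8 such ids with the highest totals (components under 1% in every group are not drawn). The components of the overexpression groups lie side by side, from Rnasek, whose counts are 98.25% shared, to Mapk8ip3 with 93.1% in its own bins.

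Bins that overlap small RNA genes rarely reached the count threshold. Of 137 small RNA genes in ids with positions, 36 had a bin with a mean of 10 or more, 34 of them microRNA genes and 1 a snoRNA gene, in 42 bins. Except for bin 5 of the Stub1 id, which Mir3082 alone owns, these bins are also exon of another gene. Their counts therefore do not measure the small RNA. In the 42 bins edgeR's test called 0 on overexpression, and 0 had an unadjusted p under 0.05. In silencing 25 could be tested, 0 were called and 1 had an unadjusted p under 0.05. RefSeq holds 22 of these microRNA genes with 28 mature microRNAs, whose 28 seeds are all different.

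Psmb5 bin 3, which carries miR-686, took 19.4%, 19.3%, 17.4%, 20.3% and 20.3% of its id in the PTBP1 OE and 18.9%, 18.7%, 20.2% and 20.7% in the control OE libraries. These overlap (log2 -0.03), and in silencing the same bin ranged from 0 to 15.04% and from 4.04% to 14.4%. Prmt2 bin 4, which carries miR-678, took 7.88% to 11.2% in PTBP1 OE and 7.86% to 10.6% in control OE, and 15.2% to 25.5% in Ptbp1 shRNA against 20.5% to 30.5% in Scrambled shRNA. The miR-1896 bin of 4930470G03Rik took 14.1% ± 1.78 in PTBP1 OE and 14.97% ± 2.47 in control OE. Bin 4 of Stub1, a chaperone-linked ubiquitin ligase, is 1 base long next to miR-3082 and still held 166 to 369 counts per overexpression library. Such reads also cover the neighbouring bins, and the sources do not state whether 1 read counts in several bins, so neighbouring usages are not independent.

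On overexpression of Ptbp1 the usage of 2 joined bins rose in edgeR's test. Of 7349 joined bins that passed the filter on low counts, edgeR's diffSpliceDGE called 2 at an adjusted p under 0.05, where 0.034% of all 117580 tested bins were called. The 2 calls are 0.0272% of the joined bins, near that background. Neither call holds with limma's test, at adjusted p of 0.127 for Nos1ap bin 1 and 0.0975 for Ccdc136 bin 26, or with 1 spread shared by 18 libraries, which calls 0 joined bins. Both bins had a control OE mean under 10 counts and met the rule only through their PTBP1 OE counts. The same holds for Ccdc136 bin 27, Klhl13 bin 13 and Glcci1 bin 24 below. The choice of bins thus favours rises at low counts, to an extent that was not tested. By the Simes method per id the same 2 ids of 486 passed, where 0.273% of 10274 ids did. At an unadjusted p under 0.05, 68 joined bins had higher usage, where 0.816% of all bins did, and 50 had lower usage, where 0.556% did. The libraries of the groups did not overlap in 63 bins that were higher in PTBP1 OE, where 0.843% of all bins were, and in 60 that were lower, where 0.832% were. These counts correspond to 0.925%, 0.68%, 0.857% and 0.816% of the joined bins, near the shares over all bins. The median size of the log2 change was 0.128 for the joined bins and 0.123 for all bins.

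By the kind of overlap the counts were as follows on overexpression. Among ids of 2 or more coding genes 42 of 3406 tested bins were higher and 26 lower at an unadjusted p under 0.05, with a median size of change of 0.14 on the log2 scale. Where a coding gene is joined to small RNA genes 10 of 1942 were higher and 8 lower, with a median size of 0.11, and where it is joined to other noncoding genes 7 of 603 were higher and 5 lower, with 0.12. Of bins that 2 or more genes own 5 of 507 were higher and 2 lower, against 25 and 22 of 3325 bins with 1 owner, and the median size was 0.12 in both. These classes also differ in count, with a median of 36.9 counts per bin in the first and 71.3 in the second.

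Bin 1 of the id that joins ENSMUSG00000096603, an identifier without a symbol, to Nos1ap, an adaptor of neuronal nitric oxide synthase, rose. Its usage was 5.37%, 2.12%, 18.4%, 3.47% and 6.53% in the PTBP1 OE libraries and 2.02%, 0.959%, 0.253% and 1.19% in the control OE libraries. Every PTBP1 OE library lies above every control library, the nearest values being 2.12% and 2.02%, and PTBP1 OE library 3 lies far above the other 4. The log2 change was 2.57 (adjusted p = 0.000303) on 12 to 47 counts against 1 to 9. Without control OE library 3 it was 2.23 with an adjusted p of 0.0623, and without any 1 of PTBP1 OE libraries 1, 3, 4 and 5 the bin no longer passed the filter. The other tested bins of the id had log2 changes of -0.65 to 0.26. In the gene table ENSMUSG00000096603 stood at 1.92 ± 1.19 CPM against 0.340 ± 0.166 (log2 2.44 ± 0.54 SE, adjusted p = 0.28) and Nos1ap at 13.1 ± 2.02 against 16.6 ± 2.22 (log2 -0.34 ± 0.15, adjusted p = 0.974). In silencing the bin was at 0 in 8 of 9 libraries.

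Bin 26 of the id that joins Ccdc136, a coiled-coil protein, to the microRNA gene Gm26220 rose too. Usage was 1.33%, 1.00%, 1.04%, 1.69% and 1.46% in PTBP1 OE and 0.112%, 0.443%, 0.197% and 0.473% in control OE. The groups do not overlap, and the lowest PTBP1 OE library is above the highest control library by a wide margin. The log2 change was 2.06 (adjusted p = 0.00235) on 24 to 47 counts against 3 to 12, and without control OE library 1 it was 1.72 with an adjusted p of 0.109. The neighbouring bin 27 had 1.16%, 0.962%, 1.09%, 1.06% and 0.548% against 0.0748%, 0.487%, 0.329% and 0.276%, also without overlap, but was not called (log2 1.79, adjusted p = 0.105). The other tested bins of the id had log2 changes of -0.25 to 0.65, and Ccdc136 itself a gene-level log2 change of -0.13 ± 0.10 (SE). In silencing bin 26 was at 0 in the 4 Ptbp1 shRNA libraries and in 3 of 5 Scrambled shRNA libraries, and bin 27 in all 9.

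The id of Tpd52l2, a member of the tumor protein D52 family, with the small nuclear RNA gene Gm25184 held another 2 bins near the top that were not called. Bin 20 took 3.81%, 3.15%, 4.60%, 4.22% and 3.53% in PTBP1 OE and 6.12%, 5.77%, 6.46% and 7.01% in control OE. In silencing it took 8.55%, 8.18%, 8.13% and 7.60% in Ptbp1 shRNA and 6.36%, 3.71%, 5.41%, 7.58% and 4.95% in Scrambled shRNA. Neither pair of groups overlaps, and the treated libraries were lower in overexpression and higher in silencing. The silencing change was small in edgeR's test (log2 0.295, unadjusted p = 0.77). The test of the difference between both experiments did not call the bin (log2 -1.09, edgeR unadjusted p = 0.298). Adjusted p was 0.224 on overexpression (log2 -0.71) and 1.0 in silencing, where counts were as low as 10, and limma's test gave an adjusted p of 0.022 on overexpression. Bin 15 had 2.20% ± 0.537 against 1.24% ± 0.148 (log2 0.82, adjusted p = 1.0), without overlap. The gene as a whole was at 72.8 ± 7.06 CPM against 74.8 ± 8.24.

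Bin 13 of Klhl13, a substrate adaptor of a ubiquitin ligase, took 1.25%, 1.28%, 0.781%, 1.78% and 1.40% in PTBP1 OE and 0.0820%, 0.656%, 0.364% and 0.518% in control OE. The groups do not overlap, on 6 to 27 counts against 1 to 8 (log2 1.70, adjusted p = 0.715). Bin 1 of Ppp3r1, at chr11:17159263-17159542 on the plus strand, took 1.16% ± 0.170 against 0.732% ± 0.181 (log2 0.66, adjusted p = 1.0), again without overlap. Bin 24 of Glcci1, a glucocorticoid-induced gene, with Umad1 took 1.02% ± 0.178 against 0.333% ± 0.195 (log2 1.65, adjusted p = 1.0), without overlap.

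A further 2 bins near the top rested on single libraries. Bin 18 of Flad1, the FAD synthase gene, with Lenep took 32.2% in PTBP1 OE library 1 and 1.67% to 3.97% in the other 4, against 1.21% to 7.05% in control OE, and without that library its log2 change of 1.92 became -0.15. Bin 32 of 4933434E20Rik with ENSMUSG00000078667 ranged from 0.360% to 21.8% in PTBP1 OE and from 1.75% to 4.74% in control OE (log2 1.51, adjusted p = 0.165). Without PTBP1 OE library 1 its log2 change was 0.20. It was 1.78 both without library 3 and without library 5, with an adjusted p of 0.0137 and 0.00266. Both pairs of groups overlap.

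**Figure D3:**
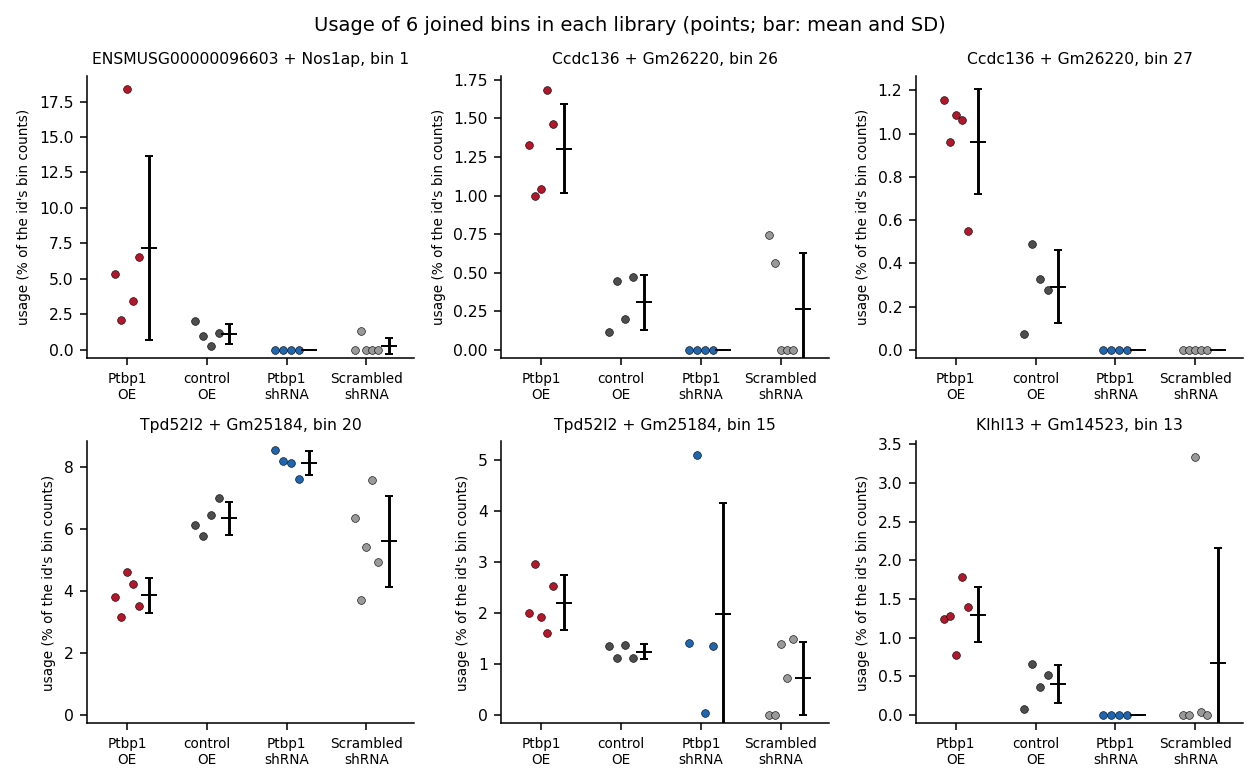
Usage of 6 of the 10 bins with the smallest p on overexpression, in percent of the id's bin counts, with 1 point per mouse in the 4 treatment groups and a bar for the mean and SD. The 5 PTBP1 OE points lie above the 4 control OE points in every panel but Tpd52l2 bin 20, where they lie below at 3.15% to 4.60% against 5.77% to 7.01%.

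Among bins with a mean usage of 5% or more, the 5 largest differences in percentage points lay in ids with few counts. Bins of Tfcp2l1, Gm11613 and 5330413P13Rik were not tested, and those of Gpr45 and Slc16a6 were tested and not called. Bin 15 of Tfcp2l1, a transcription factor, took 16.0% to 73.9% in PTBP1 OE and 66.7% to 100% in control OE on an id of 28.7 counts. Bin 6 of Gpr45, an orphan receptor, took 22.9% to 42.3% against 39.4% to 66.4%, and bin 2 of Gm11613 54.8% to 82.4% against 47.3% to 70.0%. All 3 overlap. Bin 1 of Slc16a6, a monocarboxylate transporter, took 60.0%, 40.9%, 31.7%, 37.7% and 26.3% against 8.33%, 14.0%, 21.6% and 21.6%, without overlap, on an id of 65.9 counts (log2 0.46, adjusted p = 1.0). The noncoding 5330413P13Rik bin 1 took 77.1% to 94.3% against 58.8% to 76.8%, also without overlap.

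**Figure D4:**
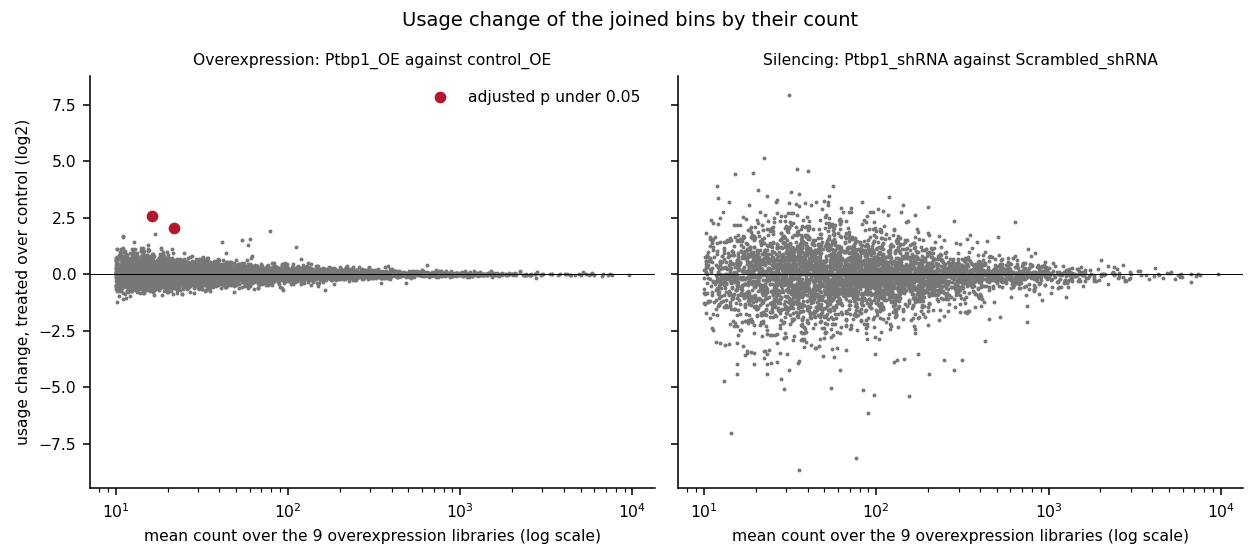
Each point is a joined bin, with its mean count over the 9 overexpression libraries on a log axis and its log2 change of usage, treated over control, for overexpression on the left and silencing on the right. Both called bins (red) are of low count, at 16.3 and 21.7 mean counts, and the spread in silencing is wider, with a median size of 0.484 against 0.128.

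No joined bin passed the test in silencing. Of 4760 joined bins that passed the filter, edgeR called 0, and 0.0012% of all 83164 bins were called. Limma's test called 1. By the Simes method 0 of 437 ids passed, where 0.0116% of 8593 did. At an unadjusted p under 0.05, 51 joined bins were higher, where 0.89% of all bins were, and 61 were lower, where 1.07% were. The groups did not overlap in 28 bins that were higher, where 0.63% of all bins were, and in 50 that were lower, where 0.856% were. The median size of the log2 change was 0.484, as over all bins.

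The smallest p belonged to bin 33 of 1700028K03Rik with ENSMUSG00000044060, at 6.98% in Ptbp1 shRNA library 2, 0 to 0.495% in the other 3 and 0.0474% to 0.420% in Scrambled shRNA (log2 3.92, adjusted p = 0.102). Bin 5 of Rpl21, a ribosomal protein gene that hosts snoRNAs, was at 0 in all 4 Ptbp1 shRNA libraries and at 0.754%, 0, 3.46%, 1.38% and 2.02% in Scrambled shRNA (adjusted p = 0.345). Bin 10 of Mettl5, a methyltransferase for ribosomal RNA, was at 0 to 0.0392% against 0.0360% to 7.02% (adjusted p = 0.531). Bin 146 of the id that joins Cdhr4, Ip6k1 and Uba7 was at 0 in all 4 against 0.267%, 2.95%, 10.4%, 4.47% and 5.46%, the only one of these 5 without overlap (adjusted p = 0.821). The noncoding A730017L22Rik bin 72 took 0.785% to 7.46% against 6.29% to 61.7% (adjusted p = 0.949). Bin 33 rested on Ptbp1 shRNA library 2, while bins 5, 10 and 146 were at or near 0 in the Ptbp1 shRNA libraries.

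The test of the difference between both responses called 14 joined bins, a count that depends on single libraries and on the tool. The contrast was the overexpression response minus the silencing response, fitted over all 18 libraries with 1 spread. In edgeR's test 14 of 7481 joined bins passed, which is 0.187%, where 0.0832% of 138200 bins did. The joined bins were chosen on overexpression counts, which favours bins with counts there and few in silencing. The part of this choice in the higher share was not tested. Without any 1 overexpression library 2 to 4 passed, without any 1 silencing library 20 to 77, the highest without Ptbp1 shRNA library 1, and limma's test passed 1. The same shared spread called 314 joined bins in silencing, where the fit on silencing libraries alone called 0. For these refits no share over all bins is given here, so their counts do not set the joined bins apart. At an unadjusted p under 0.05, 368 joined bins had a higher response in overexpression, where 5.04% of all bins did, and 286 a lower one, where 3.94% did. For 9 of the 14 at least 1 silencing group was at 0 in every library, so that the fitted log2 values depend on the prior count and give no size. On overexpression alone none of the 14 was called.

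Bins of 4 genes are given in full. Mfsd11 bin 58, in a transporter-like gene, took 0.254% to 0.681% in PTBP1 OE and 0.630% to 0.991% in control OE, and 0.0824%, 6.08%, 0 and 0.353% in Ptbp1 shRNA against 0 in all 5 Scrambled shRNA libraries. The next bin 59 took 0.264%, 6.37%, 0 and 1.63% against 0.0170% in 1 library and 0 in the other 4. Prmt2 bin 12, in an arginine methyltransferase, took 6.47% to 8.49% and 7.05% to 9.16% in overexpression, and 3.08%, 8.12%, 0.733% and 0.340% in Ptbp1 shRNA against 2.11% in 1 Scrambled shRNA library and 0 in 4. Traf7 bin 4, in a ubiquitin ligase, took 1.103% to 1.81% and 1.55% to 2.13% in overexpression, and 8.24%, 12.3%, 1.44% and 1.15% in Ptbp1 shRNA against 0 in all 5. D630045J12Rik bin 49 took 0.163% to 11.1% and 1.57% to 3.46% in overexpression, and 0 in all 4 Ptbp1 shRNA libraries against 29.4%, 2.5%, 0.112%, 0 and 0 in Scrambled shRNA. Of these 5 bins only Traf7 bin 4 had silencing groups that do not overlap.

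Bin 10 of Cers1, a ceramide synthase, took 9.88% to 13.9% and 8.79% to 14.3% in overexpression and 12.5% to 39.7% in Scrambled shRNA, but 1.37% in 1 Ptbp1 shRNA library and 0 in the other 3, without overlap. Bins 30 and 50 of the id of Irf9, a transcription factor of the interferon response, and Rnf31, a linear ubiquitin ligase, went in opposite directions: bin 30 was at 0 in all Scrambled shRNA libraries and bin 50 in all Ptbp1 shRNA libraries. Its id totals ranged from 5 to 845 counts in silencing. Tomm6os is annotated as antisense but lies on the same strand as the signalling adaptor Frs3, to which it is joined. Its bin 5 took 59.4% in Ptbp1 shRNA library 3 and at most 0.595% in the other 8 silencing libraries. On overexpression it took 1.01% to 1.70% against 2.61% to 4.11%, without overlap (log2 -1.22, adjusted p = 1.0). The remaining calls were Rpl21 bin 5, Mettl5 bin 10, bin 146 of the Cdhr4 id, Zhx1 bin 18 and bin 35 of Slc39a7 with H2-Ke6. For bin 35, 1 Ptbp1 shRNA library held 17.7% and the other 3 at most 0.488%, against 0 in Scrambled shRNA.

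**Figure D5:**
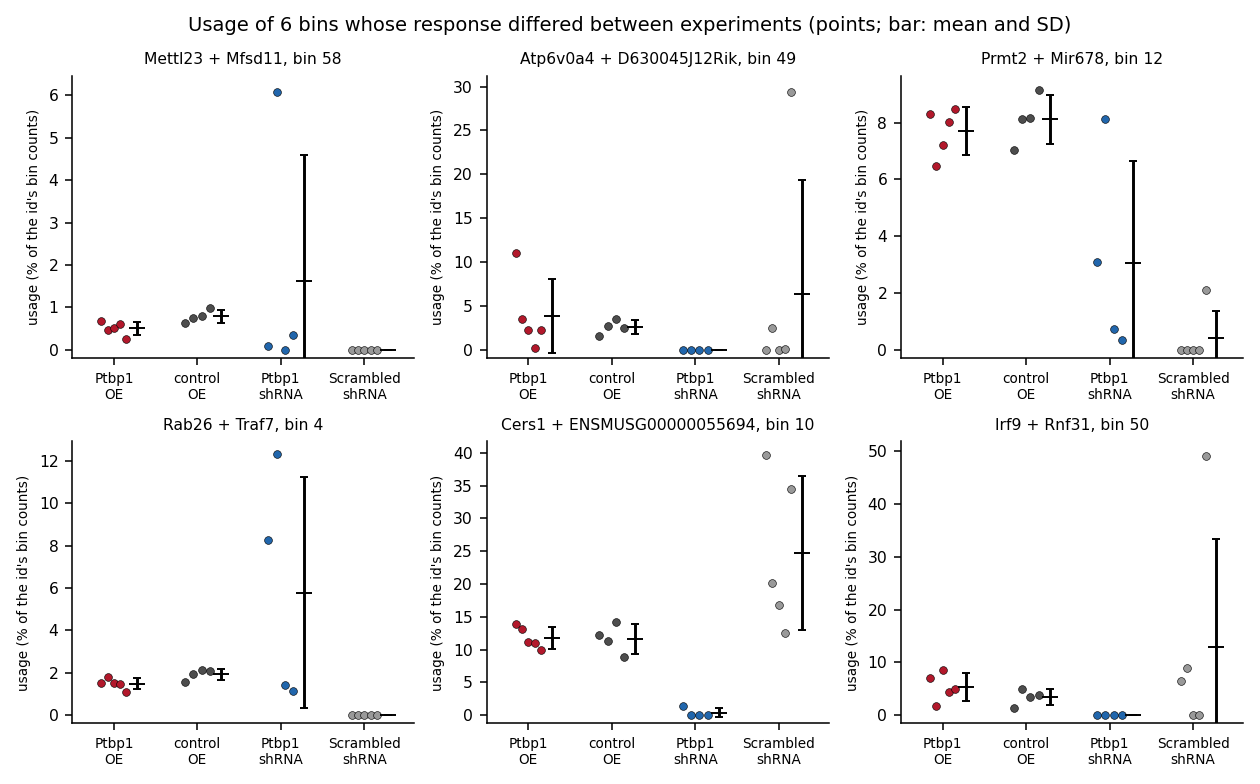
Usage of 6 of the 14 bins whose response differed between the experiments, in percent of the id's bin counts, with 1 point per mouse in the 4 groups and a bar for the mean and SD. The overexpression groups overlap in all 6 panels, and in silencing 1 group sits at or near 0, as for Traf7 bin 4 at 0 against 1.15% to 12.3%.

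The gene lists of interest gave no called bin on overexpression, in silencing or, but for 1 ribosomal bin, in the difference between them. Of 186 tested bins in 16 ids with cytosolic ribosomal proteins, 0 had an unadjusted p under 0.05 on overexpression, and their median size of change was 0.05 on the log2 scale against 0.123 over all bins. The leading bin 18 of Rpl7a took 17.6% ± 0.566 against 17.1% ± 0.412, and bin 26 of Rpl10 13.2% ± 0.293 against 13.3% ± 0.439. Of 57 bins with nuclear respiratory chain genes 0 had an unadjusted p under 0.05. Over all bins 0.816% were higher and 0.556% lower at that level, against which this and the following counts are to be read. Here Ndufb2 bin 30, in a complex I subunit gene, took 24.0% ± 0.530 against 22.9% ± 0.187, and Atp5o bin 27, in an ATP synthase subunit gene, 16.7% ± 0.495 against 16.6% ± 0.620. Pseudogene copies of ribosomal and other housekeeping genes may share their reads.

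At the same unadjusted p, where 0.816% of all bins were higher and 0.556% lower, splicing and synaptic genes showed single bins. Of 70 bins of ids with SR and hnRNP splicing factors 2 were higher and 0 lower, both in the id of Hnrnpm and March2, whose bins ranged from -0.51 to 0.96 in log2 change. March2, a ubiquitin ligase, alone owns 21 bins of that id and 27.7% ± 2.59 of its counts in PTBP1 OE. Bin 9 of Hnrnpu took 22.0% ± 2.44 against 22.5% ± 0.861. Of 58 bins with postsynaptic and channel genes 2 were higher and 0 lower, both in the Med12 and Nlgn3 id, with log2 changes up to 1.41. Bins of Gria2 and Gria3 had 0 at that level among 18 and 25, and the 20-base coding bin 27 of Gria3 that overlaps a microRNA gene took 2.68% ± 0.404 against 2.80% ± 0.266. Of 30 bins with imprinted genes 1 was higher, in the id of Commd1. Bin 32 of Meg3, a maternally expressed noncoding RNA, took 45.6% ± 4.82 against 48.3% ± 4.45. The textbook Ptbp1 splicing targets held 1 joined id, Ctbp2 with the growth factor receptor gene Fgfr2, with 0 of 6 bins at that level. Its bin 2 took 15.8% ± 6.88 against 20.98% ± 2.21.

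Long and gene-rich ids were counted in the same way, against 0.816% higher and 0.556% lower over all bins. The id of Huwe1, a giant ubiquitin ligase, had 107 of the bins and 0 of 106 tested at an unadjusted p under 0.05 on overexpression, as had Ubr4 with Emc1 for 99 tested. Mapk8ip3 had 2 higher and 1 lower of 64, Vps13d 0 higher and 1 lower of 67, and L1cam with Arhgap4 and Naa10 0 of 65. The id of Cdhr4, Ip6k1 and Uba7, which joins 6 genes, had 2 higher and 0 lower of 21. The id of Snord22 with 8 other genes had 0 of 10. Gas5, a noncoding host of 9 small RNA genes, had 1 higher of 28, and its bin 57 took 9.29% ± 0.142 against 9.09% ± 0.042. The overexpression groups did not overlap in 2 bins each of the Cdhr4 and Mapk8ip3 ids and in 1 each of the Ubr4, L1cam and Gas5 ids. In the ids of Huwe1, Vps13d and Snord22 this held for 0 bins, and over all tested bins for 1.675%. In silencing the Gas5 id stood at 412 ± 148 CPM of the bin counts in Ptbp1 shRNA and 224 ± 104 in Scrambled shRNA. The ranges, 258 to 602 and 126 to 348 CPM, overlap. In the gene table Gas5 was not called in silencing (log2 0.73 ± 0.39 SE, edgeR adjusted p = 0.517). In overexpression the id stood at 168 ± 19.97 and 149 ± 15.1 CPM, with ranges that also overlap.

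In the gene table, which counts each component by itself, no gene of a joined id passed the test. On overexpression 967 of the 1216 genes could be tested, with 493 log2 changes above 0 and 474 below, and edgeR called 0, where 0.0425% of 16480 genes were called. DESeq2 called 1, ENSMUSG00000096603. At an unadjusted p under 0.05, 31 were higher, where 2.79% of all genes were, and 22 lower, where 1.99% were. In silencing 0 of 870 were called by edgeR, where 0.0% of 14656 genes were, and DESeq2 called 17. For DESeq2 the share over all genes is not given here, so its counts do not set these genes apart. At an unadjusted p under 0.05, 65 were higher, where 5.76% of all genes were, and 35 lower, where 5.42% were.

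After ENSMUSG00000096603 the smallest p-values on overexpression were those of A330023F24Rik, Dpm1, Irf9 and Mrps6, none past the threshold. A330023F24Rik, the host of miR-29b and miR-29c, stood at 4.18 ± 1.12 CPM against 1.85 ± 0.970 (log2 1.17 ± 0.33 SE, adjusted p = 0.678). Dpm1, a mannosyltransferase, stood at 22.0 to 25.6 CPM against 26.4 to 33.7 CPM without overlap (log2 -0.38 ± 0.11, adjusted p = 0.7). Irf9 stood at 10.04 ± 4.46 CPM against 4.85 ± 1.18 (log2 1.05 ± 0.32, adjusted p = 0.765), and Mrps6, a mitochondrial ribosomal protein, at 19.5 ± 0.777 against 14.6 ± 2.29 (log2 0.42 ± 0.13, adjusted p = 0.779). Among genes of the named ids in silencing, the smallest p-values after that of Ppp3r1 were those of Klhl13, Gpr45 and Stmn1, none past the threshold. Gpr45 stood at 5.17 to 24.6 CPM against 0.390 to 5.44 CPM, which overlap (log2 3.09 ± 0.92, adjusted p = 0.224). Klhl13 stood at 28.1 to 45.2 CPM against 59.0 to 87.7 CPM, without overlap (log2 -1.16 ± 0.30, adjusted p = 0.168). Stmn1, a microtubule regulator, stood at 213 ± 59.4 CPM against 324 ± 49.99 (log2 -0.61 ± 0.23, adjusted p = 0.333). The sources do not state whether counting used strand, and without it neither table separates a gene from an overlapping partner on the other strand.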

How the data were processed

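The authors deposited whole-number counts of reads per exon bin for each library and per gene for each experiment, without normalization. The build mm10 and the tools STAR 2.5.3a and HTSeq come from the submitters' processing notes, which give no roles, annotation release or strand setting. Lines that name no bin stayed out of library sizes; they held 43.5% to 48.5% of the reads listed in overexpression and 43.3% to 46.8% in silencing. Bins were tested against the other bins of their id with edgeR 4.0.16 diffSpliceDGE in R 4.3.3, and genes with glmQLFTest, after filterByExpr and TMM, with Benjamini-Hochberg adjustment over all bins or genes at 0.05. Of the 7502 bins, 7349 passed the filter in overexpression and 4760 in silencing. Fold changes are on the log2 scale, and values after ± are SDs unless named SE. Each library is 1 mouse, so p-values measure the spread between mice. Limma 3.58.1 and DESeq2 1.42.0 served as alternatives. Bin positions were rebuilt by flattening GENCODE M21 transcripts, and used where the genes and the number of bins matched; exon sequences came from its transcripts. Code was tested on simulated counts. Named are called bins, the smallest p-values up to 10 in overexpression and 5 in silencing, the 5 largest differences at 5% usage or more, and ids by total, number of genes, number of bins and list. Bins, lists and tests were chosen with earlier results of these data known. The lists of clustered protocadherins, UDP-glucuronosyltransferases and synaptic vesicle genes held no joined id. Of the named items, 1 joined id and 1 exon sequence are not reported here.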

Additional observations from a re-analysis of the deposited data

Results flagged for a closer look

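Behind the bins named on overexpression and in silencing, 6 groups of 4 or 5 libraries held a library far from the others by Dixon's criterion. Groups behind the 14 bins named for the difference are not listed, though single libraries stand far apart there too. Tomm6os bin 5, at 59.4% in Ptbp1 shRNA library 3, is 1 of them. Chance gives such a library in about 1 in 20 groups, and no rate is given here to set beside that. Bin 1 of Nos1ap with ENSMUSG00000096603 took 18.4% in PTBP1 OE library 3 and 2.12% to 6.53% in the other 4. Bin 18 of Flad1 with Lenep took 32.2% in PTBP1 OE library 1 and 1.67% to 3.97% in the rest. Ptbp1 shRNA library 2 stood apart in 2 bins, at 6.98% against at most 0.495% for bin 33 of 1700028K03Rik and at 7.46% against at most 1.32% for A730017L22Rik bin 72. Tfcp2l1 bin 15 took 100% in control OE library 3 and 66.7% to 71.4% in the other 3. Bin 1 of 5330413P13Rik took 94.3% in PTBP1 OE library 3 and 77.1% to 80.9% in the rest.

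For 14 bins the overexpression response differed from the silencing response in edgeR's test over all 18 libraries, with the log2 difference as fitted. For 9 of them a silencing group was at 0 in every library, so that the fitted value depends on the prior count and gives no size; the others are Mfsd11 bin 59, Tomm6os bin 5, Prmt2 bin 12, Cers1 bin 10 and Mettl5 bin 10. It was lower in overexpression for Mfsd11 bins 58 and 59 (-10.6 and -9.15), Tomm6os bin 5 (-7.94), Prmt2 bin 12 (-5.8), Slc39a7 bin 35 (-8.77), Traf7 bin 4 (-8.48) and bin 30 of the Irf9 and Rnf31 id (-7.79). It was higher for D630045J12Rik bin 49 (11.1), Rpl21 bin 5 (8.47), Zhx1 bin 18 (8.62), the Cdhr4 id bin 146 (7.89), Cers1 bin 10 (5.79), Mettl5 bin 10 (6.97) and bin 50 of the Irf9 and Rnf31 id (7.87). The adjusted p ranged from 0.00112 for Mfsd11 bin 58 to 0.0496 for Mettl5 bin 10 and bin 50 of the Irf9 and Rnf31 id. Shares of joined bins at 0 were 15% to 33.75% in the Ptbp1 shRNA and 17.54% to 32.52% in the Scrambled shRNA libraries. Their part in the result was not tested.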

How the results depend on the processing

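No paired analysis was possible because the replicate numbers were given in accession order and name libraries only. Scaling by RLE size factors and a filter at a mean of 10 counts kept 2 calls on overexpression and 0 in silencing. With limma's diffSplice the counts were 1, 1 and 1 on overexpression, in silencing and for the difference, and the overexpression call was Tpd52l2 bin 20, while Nos1ap bin 1 and Ccdc136 bin 26 had adjusted p of 0.127 and 0.0975. With 1 spread shared by 18 libraries, 0 bins were called on overexpression and 314 in silencing, 160 higher and 154 lower. Without a filter 3 were called in silencing and 27 for the difference. Leaving out 1 library gave 1 to 2 calls on overexpression, 0 to 2 in silencing and 2 to 77 for the difference. The last fell to between 2 and 4 whenever an overexpression library was left out and was highest without Ptbp1 shRNA library 1. Without Ptbp1 shRNA library 2 and Scrambled shRNA library 5, chosen after seeing the data, silencing had 0 calls and the difference 75. The log2 change of Flad1 bin 18 ran from -0.15 without PTBP1 OE library 1 to 2.57 without control OE library 2. Of the component genes, DESeq2 called 1 on overexpression and 17 in silencing, and no filter gave 1 in silencing; leaving out libraries kept 0. The cause was not tested. Shares over all bins or genes are not given here for these settings, so the counts do not set joined bins or their genes apart. Usage of bins with few counts is limited by depth: both called bins held 1 to 12 counts in the control libraries.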
